A study of Mus musculus with 7 samples.

Results

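The constitutive proteasome subunits examined here were the 34 protein-coding genes Psma1 to Psma7, Psmb1 to Psmb7, Psmc1 to Psmc6 and Psmd1 to Psmd14, chosen by name out of 55450 genes in the count table. Psmb8, Psmb9 and Psmb10, which encode the interferon-inducible immunosubunits, and the pseudogenes that resemble the members were left out of this set and are described separately. The samples were dorsal skin of wild-type C57BL/6 male mice aged 24 months, each treated on the skin for 5 days with either 5 µM ABT-263 dissolved in DMSO (3 mice, numbers 476, 477 and 478) or DMSO alone (4 mice, numbers 480, 481, 482 and 483). ABT-263 (navitoclax) is an inhibitor of the anti-apoptotic proteins BCL-2, BCL-xL and BCL-w that is used as a senolytic, an agent meant to remove senescent cells. All 7 mice had the dorsal hair removed with clippers and a depilatory lotion, the skin wiped with ethanol and a semi-occlusive dressing applied, and polyA RNA came from homogenized whole skin with 1 library per mouse. The comparison asked whether the RNA of the proteasome's core particle and that of its regulatory particle differed in skin after ABT-263 relative to the vehicle.

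The proteasome is the main ATP-dependent protease of the cytosol and nucleus, and degrades proteins tagged with chains of ubiquitin. Its barrel-shaped core particle (20S) stacks rings of alpha subunits, which form the gate, on rings of beta subunits, some of which carry the proteolytic sites facing the inner chamber. The regulatory particle (19S) caps the barrel, where its base holds a ring of ATPases that unfolds substrates and its lid holds the enzyme that removes the ubiquitin chain. The subunit genes are expressed in essentially all cell types, including the keratinocytes, fibroblasts, muscle and immune cells found in a skin sample.

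Each library held between 20344364 and 43562330 counts, with the 3 largest libraries those of the ABT-263-treated mice. Expression is given in CPM (counts per 1000000 counted read pairs after TMM normalization), and changes as the log2 fold change of ABT-263 minus DMSO with its standard error (SE) from edgeR's quasi-likelihood test, a two-sided test whose p-values were adjusted by Benjamini-Hochberg over the 17959 genes that passed the expression filter. A gene was called at an adjusted p under 0.05. All 34 members passed that filter, and the lowest count of any member in any library was 505 (Psma3). The labelled tissue matched its markers: Krt14, a keratin of basal keratinocytes, lay between 8427 and 24884 CPM and Col1a1, a collagen of fibroblasts, between 1707 and 3718 CPM over the 7 mice. In whole skin, fewer cells of a type and less RNA per cell cannot be told apart. The labels name the mouse of each library and no batch.

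Most proteasome subunit RNAs had a lower mean after ABT-263, and log2 fold changes of both signs occurred in every structural group other than the beta ring and the non-ATPase base. Of the 34 members, 8 fell (Psma5, Psmb1, Psmb3, Psmb4, Psmd1, Psmd2, Psmd11 and Psmd13) and 2 rose (Psma2 and Psmd14) at an adjusted p under 0.05 by edgeR. The 10 called members are 29.4% of the set, against 24.2% of all genes tested. Read by direction, 23.5% of the members were called lower, where 11.7% of all genes were, and 5.88% were called higher, where 12.4% of all genes were. The median log2 fold change was -0.33 over the members and 0.00223 over all genes tested. The log2 fold change was negative for 23 members and positive for 11, and ran from -0.82 for Psmd13 to 0.60 for Psmd14. All 3 ABT-263-treated mice lay below all 4 DMSO-treated mice for 15 members and above them for 6. Over all genes tested the groups did not overlap for 37.1%, with ABT-263 below DMSO for 18.4% and above it for 18.7%. With the length and GC trends of each library taken out, 1 member was called higher and 14 lower, in a fit that called 24.6% of all genes, 13.9% lower.

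**Figure D1:**
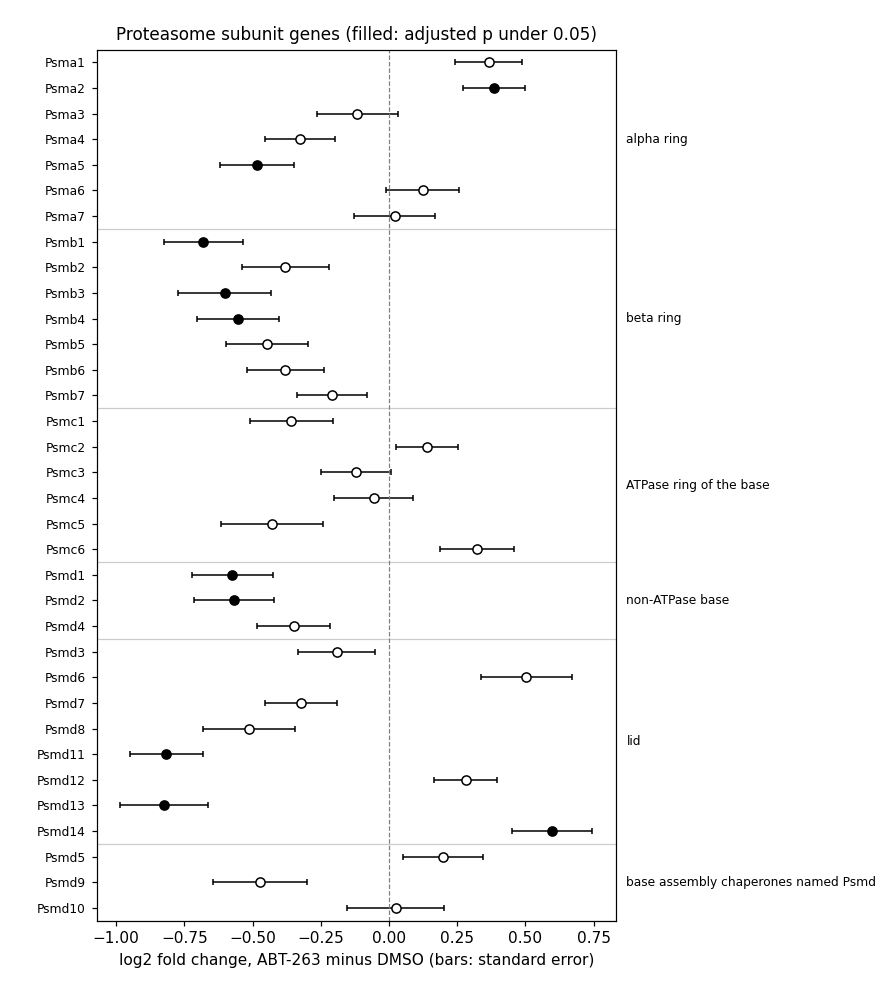
Log2 fold change (horizontal axis, ABT-263 minus DMSO) of the 34 proteasome subunit genes from edgeR's quasi-likelihood test, with standard errors as bars and members grouped by their place in the complex. Filled points mark the 10 members with an adjusted p under 0.05, and all 7 beta ring genes lie to the left of 0.

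Summed over the members, the counts gave 7409, 6692, 7473 and 7119 CPM after DMSO and 5684, 6096 and 5462 CPM after ABT-263. The highest ABT-263-treated mouse lay below the lowest DMSO-treated mouse, and the mean of the sums was lower by 19.9%. The core particle sum ranged over 2659 to 2986 CPM after DMSO and 2162 to 2427 CPM after ABT-263, and the regulatory particle sum over 4033 to 4488 and 3300.1 to 3669 CPM. These sums are dominated by the abundant members and carry no test.

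Levels between genes were compared per length, as CPM per kilobase of exon over all transcripts of the gene. That length was 7230 bases for Psmd5, 3894 for Psma3 and 899 for Psmb5, so the order also depends on the annotated exons. In CPM alone, Psmd10 at 26.9 after DMSO lay below Psmd5 at 29.0. After DMSO the highest levels per length were those of Psmb4, a structural subunit of the beta ring, at 284 ± 19.0 CPM per kilobase (SD, n = 4) and Psmc5, an ATPase of the base, at 241 ± 35.6. The SDs of that pair of means touch, so their order is not resolved. Psmb5 and Psmb6, 2 of the 3 catalytic genes, followed at 192 ± 13.1 and 177 ± 14.0. The lowest were Psmd5, a chaperone of base assembly, at 4.02 ± 0.557 and Psma3, an alpha ring subunit, at 6.71 ± 0.956, and Psma3 has a copy that held more counts than Psma3 itself, described with the alpha ring. Both of these pairs held the same ends of the order after ABT-263, where Psmb4 was at 194 ± 19.96 (SD, n = 3) and Psmd5 at 4.61 ± 0.467 CPM per kilobase. Neighbours elsewhere in the order mostly lay within their SDs, such as Psmd2 at 114 ± 7.79 and Psmd7 at 117 ± 10.3 after DMSO.

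**Figure D2:**
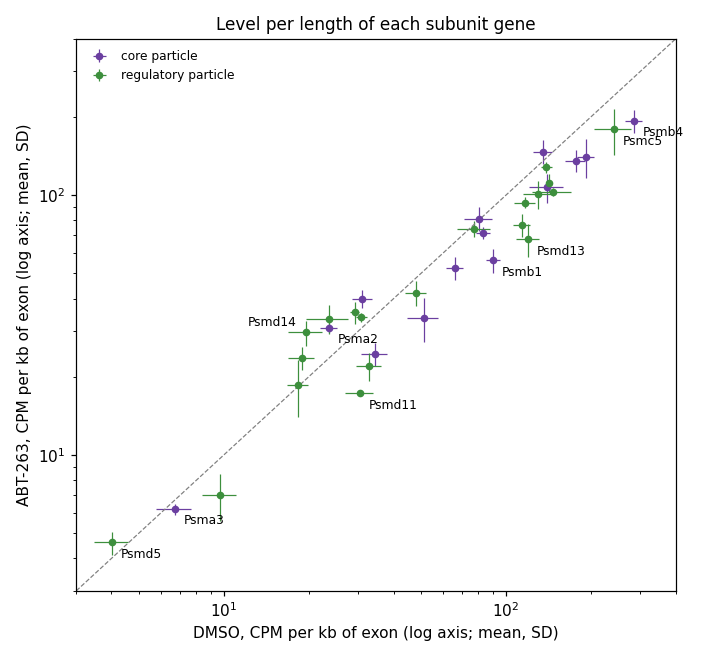
Level per length of each member after DMSO (horizontal) and after ABT-263 (vertical), in CPM per kilobase of exon on log axes, as means with SD over 4 and 3 mice. Points below the dashed line of equality were lower after ABT-263, and the levels run from about Psmd5 at 4.02 to Psmb4 at 284 after DMSO.

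The beta ring, which holds the proteolytic sites, had lower means throughout. All 7 of its genes had a negative log2 fold change (-0.68 to -0.21, median -0.45). Of these, 3 (42.9%) were called lower and none higher, where 11.7% of all genes tested were called lower. The groups did not overlap for 6, each with ABT-263 below DMSO, which held for 18.4% of all genes. Psmb1 (ENSMUSG00000014769, chr17:15475021-15499751), a structural subunit, was at 418, 379.8, 438 and 419.6 CPM in DMSO-treated mice 480 to 483 and 267, 281 and 227 CPM in ABT-263-treated mice 476 to 478. The highest ABT-263-treated mouse lay well below the lowest DMSO-treated mouse. The mean was 414 ± 24.4 CPM over the 4 DMSO-treated mice (± SD) and 258 ± 27.9 CPM over the 3 ABT-263-treated mice, and Psmb1 fell at -0.68 (SE 0.14, adjusted p = 0.0162) on the log2 scale by edgeR.

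Psmb3 (ENSMUSG00000069744, chr11:97703399-97713500), another structural subunit, was at 137, 102, 113 and 118 CPM after DMSO and 75.4, 93.7 and 63.6 CPM after ABT-263, mice in the same order. The groups were separate but close, with ABT-263-treated mouse 477 next to DMSO-treated mouse 481. Its log2 fold change was -0.60 (SE 0.17, adjusted p = 0.0374) by edgeR. Psmb4 (ENSMUSG00000005779, chr3:94884093-94886961), the most abundant member per length, was at 592, 519, 579.5 and 526 CPM after DMSO and 382, 415 and 337 CPM after ABT-263. Every ABT-263-treated mouse was lower than every DMSO-treated mouse, and the log2 fold change was -0.55 (SE 0.15, adjusted p = 0.0337) by edgeR.

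The catalytic subunits had lower means after ABT-263 without passing the threshold in edgeR (0 of 3), although 2 had an unadjusted p under 0.05 and the DESeq2 Wald test called the same 2, Psmb5 and Psmb6, while limma called none. Psmb5, which carries the chymotrypsin-like site, was at 187, 159, 175 and 169.9 CPM after DMSO and 113, 152 and 115 CPM after ABT-263. Mouse 477 was again the ABT-263-treated mouse nearest to the DMSO group, which it did not enter, and the log2 fold change was -0.45 (SE 0.15, adjusted p = 0.0605) by edgeR. Psmb6, which carries the caspase-like site, was at 355, 296, 347 and 327 CPM after DMSO and 238, 283 and 242 CPM after ABT-263. The log2 fold change was -0.38 (SE 0.14, adjusted p = 0.0837) by edgeR, with no overlap of the groups. Psmb7, which carries the trypsin-like site, was at 264, 278, 291 and 301 CPM after DMSO and 229.8, 249.8 and 256 CPM after ABT-263. The groups were separate but close, and the log2 fold change, -0.21 (SE 0.13, adjusted p = 0.255) by edgeR, was the smallest of the ring. Psmb2, a structural subunit, was the beta gene whose groups overlapped (-0.38, adjusted p = 0.113 by edgeR).

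**Figure D3:**
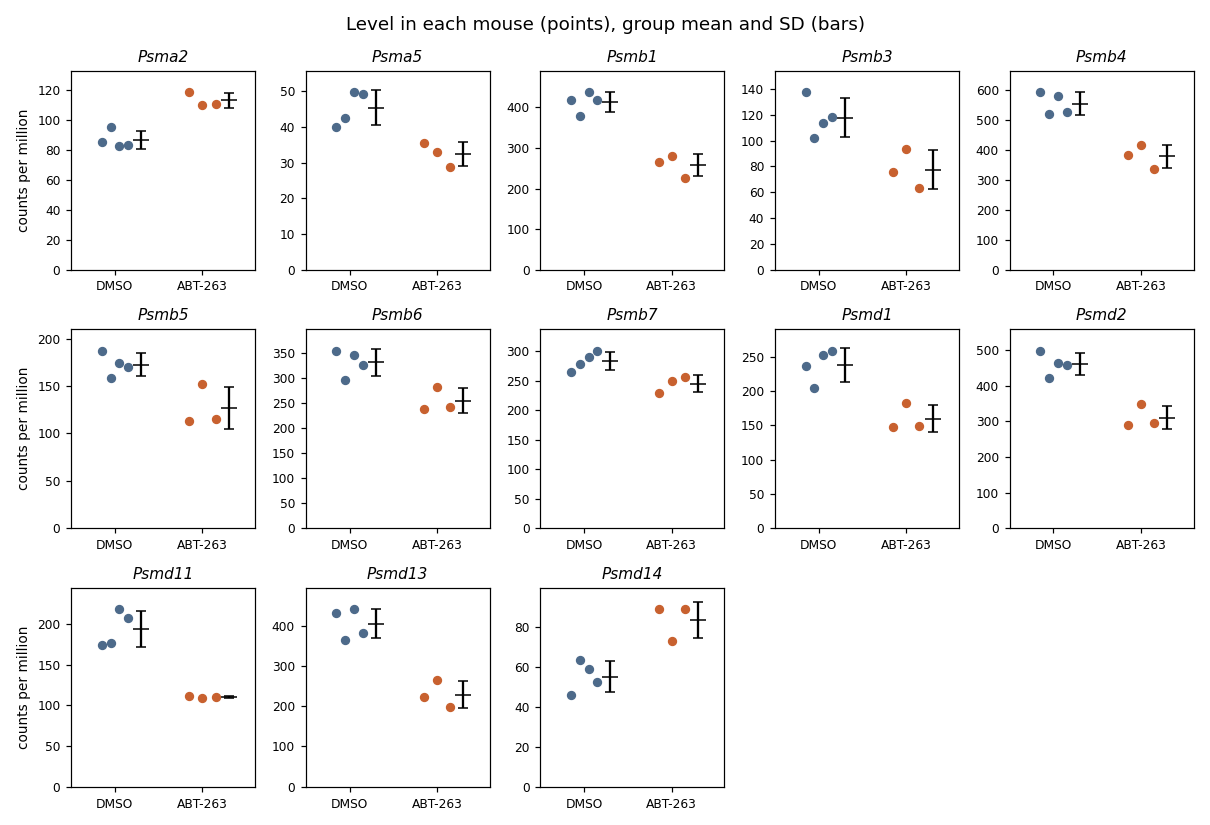
CPM in each mouse (points) of the 10 called members and the 3 catalytic genes Psmb5, Psmb6 and Psmb7, with the group mean and SD beside the points and each vertical axis starting at 0. In all 13 panels the DMSO-treated and ABT-263-treated mice occupy separate ranges, with ABT-263 above DMSO for Psma2 and Psmd14 and below for the others.

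The alpha ring, whose N-terminal tails form the gate of the barrel, did not move in one direction. It had 1 gene called higher, 1 called lower, 4 positive and 3 negative log2 fold changes and a median of 0.020. The 2 calls were 28.6% of the ring, beside 24.2% of all genes tested. Psma2 (ENSMUSG00000015671, chr13:14613240-14674236) was at 85.4, 95.2, 82.5 and 83.6 CPM after DMSO and 119, 110.2 and 111 CPM after ABT-263. All 3 ABT-263-treated mice lay above all 4 DMSO-treated mice, and the rise was 0.38 (SE 0.11, adjusted p = 0.0413) by edgeR. Psma1 was also higher in every ABT-263-treated mouse, at a log2 fold change of 0.37 (SE 0.12, adjusted p = 0.0617) by edgeR, which did not pass. The DESeq2 Wald test called Psma1 higher, and limma did not. Psma6 (0.12), Psma7 (0.020) and Psma3 (-0.12) had overlapping groups, and Psma4 was at -0.33 (SE 0.13, adjusted p = 0.0970) by edgeR with separate groups.

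Psma5 (ENSMUSG00000068749, chr3:108256926-108279974) was at 40.0, 42.4, 49.7 and 49.2 CPM after DMSO and 35.4, 33.1 and 28.8 CPM after ABT-263. The groups did not overlap, and Psma5 counted alone fell, with a log2 fold change of -0.48 (SE 0.13, adjusted p = 0.0358) by edgeR. This value depended on how reads were divided between Psma5 and its processed pseudogenes, which are intronless copies of the spliced RNA elsewhere in the genome. Gm8394 (chr10:85313488-85314439) and Gm12989 (chr4:135715868-135716598) held counts equal to 54.3% and 61.1% of those of Psma5. Their sequences differ from the 726 coding bases of Psma5 at 8 and 7 positions, and the longest stretch identical to Psma5 is 248 and 202 bases. Coding bases 36 to 125 of Psma5 in the GENCODE M21 transcripts show how little separates the 3 genes, with the bases that differ from Psma5 in capitals.
Psma5: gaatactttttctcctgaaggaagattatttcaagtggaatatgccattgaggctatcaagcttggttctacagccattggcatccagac
Gm8394: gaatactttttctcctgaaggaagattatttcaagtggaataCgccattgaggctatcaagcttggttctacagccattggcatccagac
Gm12989: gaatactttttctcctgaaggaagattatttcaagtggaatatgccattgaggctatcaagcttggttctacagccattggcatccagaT

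Gm8394, named after its values were seen, was at 13.6, 17.3, 13.9 and 15.4 CPM after DMSO and 26.5, 23.9 and 24.8 CPM after ABT-263. It was higher in every ABT-263-treated mouse, with a log2 fold change of 0.74 (SE 0.14, adjusted p = 0.0114) by edgeR, the opposite direction to Psma5. Gm12989 had means of 22.6 ± 0.794 CPM (± SD, 4 DMSO-treated mice) and 24.0 ± 2.90 CPM (3 ABT-263-treated mice), with a log2 fold change of 0.085 (adjusted p = 0.651) by edgeR. With the counts of both copies added to those of Psma5, the log2 fold change was -0.026 (SE 0.12, adjusted p = 0.894 by edgeR).

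Psma3 showed the same ambiguity in level rather than in change. Gm13835 (chr6:31141979-31142663), a processed pseudogene also named after its values were seen, held counts equal to 507% of those of Psma3 and is identical to it over the 665 coding bases that align. Coding bases 104 to 193 of Psma3 illustrate that no base separates them.
Psma3: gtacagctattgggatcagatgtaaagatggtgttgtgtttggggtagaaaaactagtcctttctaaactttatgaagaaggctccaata
Gm13835: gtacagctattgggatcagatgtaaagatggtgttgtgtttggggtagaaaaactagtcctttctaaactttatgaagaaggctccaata

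After DMSO the mean of Psma3 was 26.1 ± 3.72 CPM (± SD, 4 mice), while that of Gm13835 was 131 ± 12.4 CPM. By edgeR the log2 fold change was -0.12 (adjusted p = 0.594) for Psma3 and -0.082 (adjusted p = 0.666) for Gm13835, neither past the threshold. Near-identical copies, defined as transcripts of another locus with at least 90% identity over at least 500 bases, were found for 12 members, 25 copies in all, and held over 5% of the member's counts for 7 members. Psmb3 had a pseudogene with 49.96% and Gm4950 with 23.4% of its counts, Psmb5 had Gm3375 with 22.9%, Psma4 had Gm6542 with 11.8%, Psmd11 had Gm14048 with 6.99%, and Psmd2 had Gm5422 with 5.82%. Another annotated gene overlaps 12.1% of the exon bases of Psmb5 and 4.14% of those of Psmd1, so a few of their reads are uncertain too. With copies summed into each member, 9 of the 10 calls were kept and the lost call was that of Psma5. Psmd11 moved from -0.82 to -0.71 and Psmb3 from -0.60 to -0.53.

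**Figure D4:**
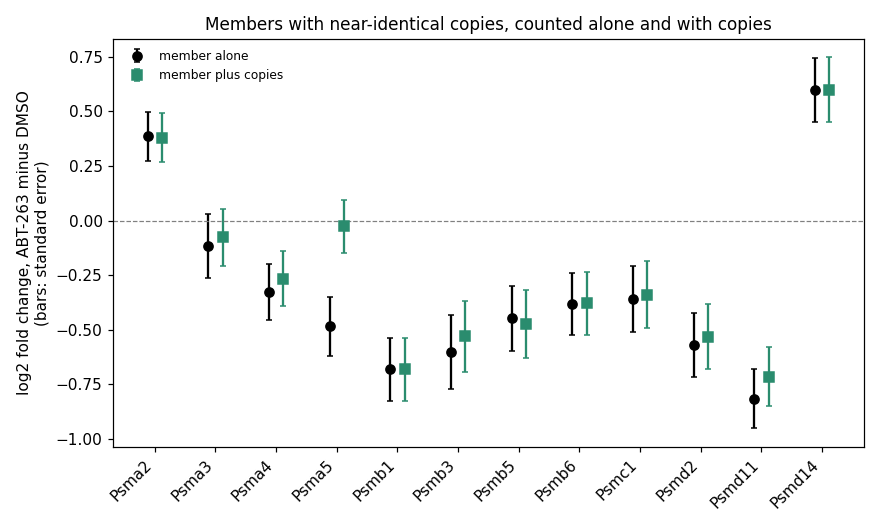
Log2 fold change (vertical axis, ABT-263 minus DMSO, with standard error bars) of the 12 members that have near-identical copies, counted alone (circles) and with the counts of their copies added (squares). Psma5 moves from -0.48 to -0.026, nearer to 0, and none of the 12 changes sign.

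In the regulatory particle, the ATPase ring of the base opens the gate and threads substrates into the core. It had no call among its 6 genes, where 24.2% of all genes tested were called. The median log2 fold change of the 6 was -0.088 (range -0.43 to 0.32). Without adjustment 3 of them would pass 0.05 in edgeR: Psmc1 (-0.36, adjusted p = 0.117), Psmc5 (-0.43, adjusted p = 0.124) and Psmc6 (0.32, adjusted p = 0.112). For Psmc5 the values were 411, 316, 312 and 307 CPM after DMSO and 221, 308 and 221 CPM after ABT-263, and DMSO-treated mouse 480 stood above the rest. The DESeq2 Wald test and limma called none of the 6 either, and the groups overlapped for 5 of them.

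The non-ATPase base, the scaffold that binds ubiquitin carriers and holds a ubiquitin receptor, had lower means in all 3 of its genes. Of these, 2 (66.7%) were called lower, where 11.7% of all genes tested were. Psmd1 (ENSMUSG00000026229, chr1:86064387-86139151), one of the large scaffold subunits, was at 236, 204, 253 and 259 CPM after DMSO and 148, 182 and 149.9 CPM after ABT-263. Every ABT-263-treated mouse was lower than every DMSO-treated mouse, and Psmd1 fell with a log2 fold change of -0.57 (SE 0.15, adjusted p = 0.0289) by edgeR. Psmd2 (ENSMUSG00000006998, chr16:20651652-20663414), the other large scaffold subunit, was at 498, 421, 464 and 459 CPM after DMSO and 289.5, 347 and 295 CPM after ABT-263. It too had separate groups, with a log2 fold change of -0.57 (SE 0.15, adjusted p = 0.0286) by edgeR. Psmd4, the ubiquitin receptor, had a log2 fold change of -0.35 (SE 0.13, adjusted p = 0.0882) by edgeR and was below DMSO in every ABT-263-treated mouse without passing. The DESeq2 Wald test called Psmd4 lower, and limma did not.

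The lid, the subcomplex that removes ubiquitin chains, held both the largest falls and the largest rise of the set. Psmd11 (ENSMUSG00000017428, chr11:80428615-80473248), a scaffold subunit that braces the lid against the core, was at 174, 176, 218 and 207 CPM in DMSO-treated mice 480 to 483 and 112, 108.8 and 110.1 CPM in ABT-263-treated mice 476 to 478. The ABT-263-treated mice were nearly equal to each other and far below the lowest DMSO-treated mouse. The means were 194 ± 22.2 CPM (± SD, 4 mice) and 110.2 ± 1.47 CPM (3 mice), and Psmd11 fell at -0.82 (SE 0.13, adjusted p = 0.00850) on the log2 scale by edgeR. Psmd13 (ENSMUSG00000025487, chr7:140881968-140898643), another scaffold subunit of the lid, was at 430.1, 365, 441 and 383 CPM after DMSO and 222, 266 and 199 CPM after ABT-263. All ABT-263-treated mice were lower, and the log2 fold change was -0.82 (SE 0.16, adjusted p = 0.0130) by edgeR.

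Psmd14 (ENSMUSG00000026914, chr2:61711694-61800376), the metalloprotease that cuts the ubiquitin chain from the substrate, was at 46.0, 63.5, 58.7 and 52.5 CPM after DMSO and 88.8, 72.9 and 89.0 CPM after ABT-263. All 3 ABT-263-treated mice were above the highest DMSO-treated mouse, and Psmd14 rose with a log2 fold change of 0.60 (SE 0.15, adjusted p = 0.0253) by edgeR. Psmd7, the inactive partner with which Psmd14 pairs in the lid, was at -0.32 (SE 0.13, adjusted p = 0.108) by edgeR and lay below DMSO in every ABT-263-treated mouse. Of the other lid scaffold genes, Psmd6 (0.50, adjusted p = 0.0597) and Psmd12 (0.28, adjusted p = 0.110) were above DMSO in every ABT-263-treated mouse. Psmd8 (-0.51, adjusted p = 0.0574) was below, and Psmd3 (-0.19, adjusted p = 0.345) overlapped, none of them past the threshold in edgeR. The DESeq2 Wald test, which called 32.8% of all genes, called Psmd6 and Psmd12 higher and Psmd7 and Psmd8 lower, while limma called none of these. The chaperones of base assembly that share the Psmd name, Psmd5, Psmd9 and Psmd10, had overlapping groups and no call in edgeR or the DESeq2 Wald test (-0.47 to 0.20), with 1 unadjusted p under 0.05 (Psmd9).

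The sequences just upstream of the start site are shown for the pair of members that fell most, Psmd11 and Psmd13, and the pair that rose, Psma2 and Psmd14. They are the 250 bases before the RefSeq start on GRCm38.p6, read 5′ to 3′ in the direction of the gene, with any CCAAT box, the site bound by the factor NF-Y, in capitals on either strand (CCAAT or ATTGG).
Psmd11, chr11:80428365-80428614, plus strand: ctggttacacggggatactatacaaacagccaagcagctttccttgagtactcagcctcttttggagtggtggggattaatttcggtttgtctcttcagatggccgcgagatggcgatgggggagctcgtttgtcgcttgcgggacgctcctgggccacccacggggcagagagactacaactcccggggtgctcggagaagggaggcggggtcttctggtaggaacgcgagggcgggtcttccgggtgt
Psmd13, chr7:140882144-140882393, plus strand: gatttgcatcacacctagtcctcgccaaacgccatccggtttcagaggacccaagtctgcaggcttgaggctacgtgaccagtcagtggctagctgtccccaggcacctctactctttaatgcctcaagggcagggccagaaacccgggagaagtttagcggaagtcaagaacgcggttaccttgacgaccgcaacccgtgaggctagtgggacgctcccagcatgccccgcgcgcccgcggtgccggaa
Psma2, chr13:14612992-14613241, plus strand: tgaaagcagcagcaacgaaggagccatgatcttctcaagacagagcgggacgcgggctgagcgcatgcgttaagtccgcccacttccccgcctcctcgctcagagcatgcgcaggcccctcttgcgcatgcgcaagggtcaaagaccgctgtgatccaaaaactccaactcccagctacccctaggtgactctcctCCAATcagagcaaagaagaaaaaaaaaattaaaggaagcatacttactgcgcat
Psmd14, chr2:61711444-61711693, plus strand: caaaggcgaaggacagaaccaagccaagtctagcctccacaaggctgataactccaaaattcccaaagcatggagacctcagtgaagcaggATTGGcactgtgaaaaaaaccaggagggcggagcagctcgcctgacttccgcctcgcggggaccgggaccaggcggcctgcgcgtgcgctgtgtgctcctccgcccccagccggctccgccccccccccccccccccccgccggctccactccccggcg

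The stretches of Psma2 and Psmd14 each hold the letters once, and those of Psmd11 and Psmd13 do not. Over the 28 members with a RefSeq promoter entry, in the window from 250 bases before to 50 bases after the start, 11 members held a CCAAT on either strand (39.3%), where 41.1% of all genes did. Of these, 6 were among 11 core genes matched (Psma1, Psma2, Psma3, Psma6, Psma7 and Psmb3) and 5 among 17 regulatory genes. Among the 7 matched members that were called lower, 1 held them (Psmb3). The letters TGACNNNGC on either strand, the core of the antioxidant response element that NRF1 and NRF2 bind, were in 5 members (Psmb5, Psmb6, Psmc6, Psmd9 and Psmd12), or 17.9%, where 14.0% of all genes held them. None of the 9 called members with an entry was among them. The matches of the catalytic genes are shown with 10 flanking bases on each side and the match in capitals, starting 47 bases before the start in Psmb5 and 9 bases before it in Psmb6.
Psmb5: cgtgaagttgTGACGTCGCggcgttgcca
Psmb6: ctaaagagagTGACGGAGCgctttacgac
A match is a description of these letters and not evidence of binding.

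Counted by particle, 5 of the 14 core genes (35.7%) and 5 of the 20 regulatory genes (25.0%) were called, in each case 1 higher and 4 lower. Over all genes tested 24.2% were called, 12.4% higher and 11.7% lower, so the regulatory share in either direction was close to that of all genes. Read by direction, both particles had a larger share called lower than all genes and a smaller share called higher. The median log2 fold change was -0.35 for the core and -0.26 for the regulatory particle, a difference of -0.096 that carries no test. In each mouse the mean log2 CPM of the core members minus that of the regulatory members was -0.010, -0.054, -0.021 and 0.012 after DMSO and -0.021, -0.084 and -0.12 after ABT-263. These ranges overlapped, so the balance of core to regulatory RNA did not separate the groups. The difference of the medians also depended on the counting: it was 0.020 with copies summed into the members, -0.037 with the length trend removed and -0.045 without ABT-263-treated mouse 478.

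A larger difference lay inside the core, between its rings, and was chosen for description after the values were seen. The mean log2 CPM of the beta ring was 8.10, 7.86, 8.03 and 8.003 after DMSO and 7.49, 7.70 and 7.40 after ABT-263, with every ABT-263-treated mouse lower. That of the alpha ring was 6.44, 6.53, 6.62 and 6.55 after DMSO and 6.64, 6.48 and 6.48 after ABT-263, with overlapping groups. The alpha mean minus the beta mean was -1.66, -1.34, -1.41 and -1.45 after DMSO and -0.85, -1.22 and -0.93 after ABT-263, and the groups did not overlap. With the counts of copies summed, the median log2 fold change was 0.020 for the alpha ring and -0.47 for the beta ring. The non-ATPase base (8.35 to 8.50 after DMSO, 7.86 to 8.10 after ABT-263) and the lid (7.29 to 7.49 and 7.20 to 7.24) were also separate between the groups, while the ATPase ring (7.52 to 7.71 and 7.45 to 7.60) was not.

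**Figure D5:**
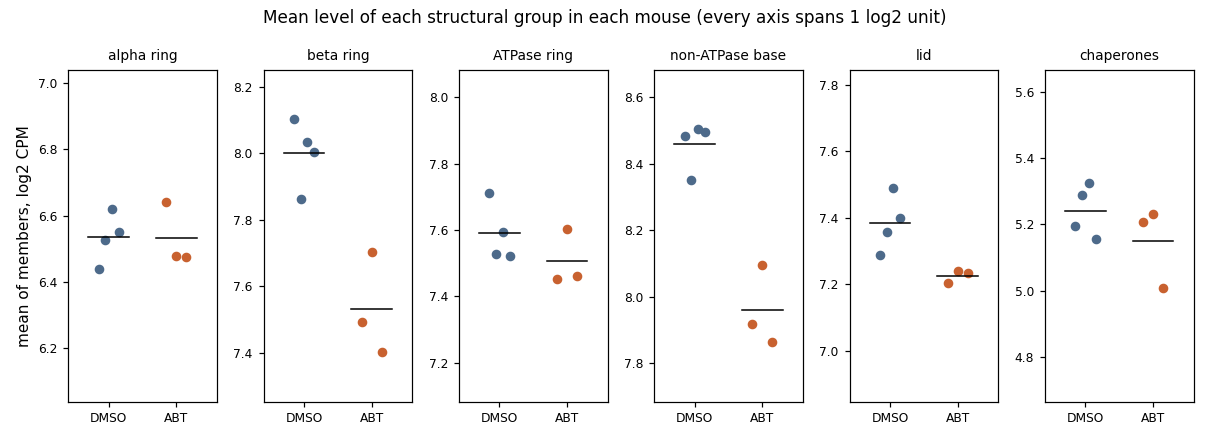
Mean log2 CPM of the members of each structural group in each mouse (points), with the group mean as a line; every vertical axis spans 1 log2 unit. The beta ring, the non-ATPase base and the lid are lower in all ABT-263-treated mice, and the alpha ring, the ATPase ring and the chaperones overlap.

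The immunosubunits Psmb8, Psmb9 and Psmb10 replace Psmb5, Psmb6 and Psmb7 in cells exposed to interferon and in immune cells. None of them or of the PA28 activator genes Psme1 and Psme2 was called by edgeR (0 of 5), where 1 (Psmb8) had an unadjusted p under 0.05 and the DESeq2 Wald test called 1. Psmb8 was at 114, 70.7, 79.5 and 69.5 CPM after DMSO and 436, 96.7 and 119 CPM after ABT-263. ABT-263-treated mouse 476 stood far above the other 6 mice, and the log2 fold change was 1.38 (SE 0.51, adjusted p = 0.0846) by edgeR. Psmb9 (0.95, adjusted p = 0.182) and Psmb10 (1.228, adjusted p = 0.135) had the same mouse on top. The immunosubunits made up 23.6, 17.5, 19.4 and 17.5 after DMSO and 61.3, 22.7 and 28.2 after ABT-263, in percent of the summed CPM of the 6 catalytic and immunosubunit genes. For this share mouse 477 lay within the DMSO range and mouse 478 slightly above it. The thymus and testis forms Psmb11 and Psma8 were near 0 and were not tested.

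Among the 5 genes for chaperones of core assembly, 2 fell and none rose, where 11.7% of all genes tested were called lower and 12.4% higher. Psmg2, which pairs with Psmg1 to build the alpha ring, was at 40.6, 48.4, 44.0 and 43.5 CPM after DMSO and 21.5, 28.5 and 20.8 CPM after ABT-263. Every ABT-263-treated mouse was far below the DMSO group, with a log2 fold change of -0.90 (SE 0.15, adjusted p = 0.00845) by edgeR. Psmg3, which pairs with Psmg4 in the same process, had a log2 fold change of -0.83 (SE 0.16, adjusted p = 0.0123) by edgeR. The partners Psmg1 (-0.20, adjusted p = 0.434) and Psmg4 (0.017, adjusted p = 0.957) and Pomp, the maturation factor of the beta ring (-0.33, adjusted p = 0.180), were not called. Of 7 other resident and associated proteins, Usp14, a deubiquitinase that binds the base, rose (0.56, SE 0.14, adjusted p = 0.0252 by edgeR) and the rest were not called. Leaving out 1 mouse gave 2 calls among the chaperones of core assembly each time, while the Usp14 list had none without DMSO-treated mouse 481 or 483 or ABT-263-treated mouse 478. None of the 3 genes for other activators and the inhibitor Psmf1 was called by edgeR, by the DESeq2 Wald test or at an unadjusted p under 0.05.

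Upstream of the proteasome, Uba6, an enzyme that activates ubiquitin, fell (-0.70, SE 0.14, adjusted p = 0.0146 by edgeR), a call lost without ABT-263-treated mouse 478. Ubb, a polyubiquitin gene, was at -0.0096 (adjusted p = 0.973 by edgeR). Of 8 genes for shuttle factors and the p97 segregase, which deliver substrates, Ubqln4 fell (-0.57, SE 0.12, adjusted p = 0.0175 by edgeR) and 7 were not called. That list had no call without DMSO-treated mouse 482 or ABT-263-treated mouse 476 or 478. Its 1 call was 12.5% of the list, where 11.7% of all genes tested were called lower.

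NRF1 (Nfe2l1) is the transcription factor known to raise proteasome genes when proteasome activity is limiting, and Ngly1 and Ddi2 encode enzymes that process it. Nfe2l1 itself was at 559.9, 633, 1062 and 909 CPM after DMSO and 607, 595 and 753 CPM after ABT-263. The ABT-263-treated mice lay inside the wide DMSO range, with a log2 fold change of -0.28 (SE 0.26, adjusted p = 0.449) by edgeR. Of the 7 genes listed for this axis, 3 rose (42.9%) and 1 fell (14.3%), where 12.4% and 11.7% of all genes tested did. Nfe2l2, the related factor NRF2, had means of 40.3 ± 5.08 CPM (± SD, 4 DMSO-treated mice) and 89.95 ± 27.3 CPM (3 ABT-263-treated mice) and rose at 1.16 (SE 0.21, adjusted p = 0.0103) by edgeR. Ngly1 (0.72, adjusted p = 0.0206) and Maff (1.21, adjusted p = 0.0373), a small partner protein of both factors, also rose by edgeR, and the partner Mafg fell (-0.46, adjusted p = 0.0458). For Maff the groups overlapped, with ABT-263-treated mouse 478 at 19.9 CPM below DMSO-treated mouse 480 at 21.3 CPM. With 1 mouse left out, this list had 1 to 4 calls, with 1 without DMSO-treated mouse 483 and 2 without DMSO-treated mouse 482 or any of the ABT-263-treated mice. With DESeq2 size factors it had 3 higher and 0 lower, so that the Mafg call was lost.

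Other multi-subunit complexes of the cytosol were counted in the same way, beside the 24.2% of all genes tested that were called. The COP9 signalosome, whose subunits resemble those of the lid, had 1 call among 9 genes (Cops2, higher) and a median log2 fold change of -0.076. The CCT chaperonin had 2 calls among 8 (Cct2 higher, Cct8 lower) and a median of -0.12, and the translation initiation factor eIF3 had 2 among 14 (Eif3j1 and Eif3j2, lower, a pair of near-identical genes whose reads are hard to divide) and a median of -0.24. These few calls rested on single mice: with 1 mouse left out the counts were 0 to 1 for COP9, 0 to 2 for CCT and 0 to 3 for eIF3. COP9 had a call without ABT-263-treated mouse 477 alone, CCT had none without DMSO-treated mouse 482 or 483 or ABT-263-treated mouse 476 or 478, and eIF3 had none without mouse 482, 483, 477 or 478. The proteasome median of -0.33 was below these medians, and no test of that order was made. The log2 fold change was negative for 5 of 9 COP9, 7 of 8 CCT and 9 of 14 eIF3 genes, and for 23 of the 34 members. All ABT-263-treated mice lay below all DMSO-treated mice for 1 COP9, 2 CCT and 6 eIF3 genes, and for 15 members. Over all genes tested this held for 18.4%. Lower means in most genes were thus not particular to the proteasome.

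Markers of some other cell types differed between the groups, and those of others overlapped. The summed CPM of 10 skeletal muscle markers was 40285 to 80072 after DMSO and 30261 to 41592 after ABT-263. These sums overlapped, with ABT-263-treated mouse 478 above DMSO-treated mouse 480. All 10 muscle markers had a negative log2 fold change, 3 of the 10 (Tnnt3, Tnnc2 and Pvalb) were called lower, and the groups overlapped for 6. Macrophage markers summed to 369 to 1093 CPM after DMSO and 1228 to 3900.0 CPM after ABT-263, with 5 of 7 called higher, and neutrophil markers to 99.8 to 1820.3 and 5097 to 8318 CPM, with 3 of the 5 tested called higher. The neutrophil sums were mostly S100a8 and S100a9. The defining neutrophil marker Ly6g was at 0, 0.253, 0 and 0.123 CPM after DMSO and 14.0, 0.101 and 0.172 CPM after ABT-263, so that mouse 476 stood apart and mice 477 and 478 lay within the DMSO range. Retnlg, another neutrophil marker, was at 232 CPM in mouse 476, at 2.09 and 3.03 CPM in mice 477 and 478 and at 0.0843 to 1.03 CPM after DMSO. No other neutrophil marker and no muscle or macrophage marker was at 0 in any mouse. Endothelial markers were called higher in 5 of 5 genes and fibroblast markers in 3 of 6. Over all genes tested, 12.4% were called higher and 11.7% lower. Keratinocyte sums overlapped between the groups (18102 to 31126 and 13782 to 35837 CPM for basal markers). Hair follicle markers summed to 31.9 to 2468 CPM after DMSO, highest in mouse 481, and to 3.79 to 448 CPM after ABT-263, with overlapping sums. The sums of T cell, adipocyte and sebocyte markers overlapped as well. Among the T cell, adipocyte and sebocyte markers only Mc5r, of sebocytes, was called, and it was lower. The part of these cell types in the proteasome values was not tested.

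The members that were higher after ABT-263 had a lower GC content. GC content was that of the longest transcript of each gene. Its median was 44.0% for the 11 members with a positive log2 fold change and 50.9% for the 23 with a negative one. Across the 34 members Pearson's r of log2 fold change with GC content was -0.43. The r of log2 fold change with the log2 of the mean CPM after DMSO was -0.58, so the more highly counted members also had the lower log2 fold changes. The DMSO level enters both of these values, with opposite signs, which by itself can draw this r below 0. No such r across all genes was computed. Across 17942 tested genes the r with GC content was -0.044. These are descriptions across genes measured in the same 7 libraries, and genes are not replicates. With the GC trend of each library removed, 15 members were called, 9 of the 10 among them, and Psma2 was the one not kept. That fit called 24.8% of all genes.

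Calls of single members depended on individual mice. Psmd11 and Psmd13 were called in all 7 fits that left out 1 mouse, with log2 fold changes of -0.87 to -0.76 and -0.92 to -0.73. Psmb1 was called in 5 of the 7 (-0.72 to -0.59), and not without DMSO-treated mouse 482 or ABT-263-treated mouse 478. Psmd14 (0.52 to 0.71), Psmd1 (-0.65 to -0.51) and Psmd2 (-0.63 to -0.51) were called in 3, those without DMSO-treated mouse 480 or 481 or ABT-263-treated mouse 477. Psmb3 (-0.73 to -0.47) was called in 2, without mouse 481 or 477, and Psma2 (0.36 to 0.43), Psma5 (-0.54 to -0.40) and Psmb4 (-0.60 to -0.47) in 1, without mouse 481 for Psma2 and without mouse 480 for the others. None of the 10 changed direction in these fits. The number of members called was 2 without DMSO-treated mouse 482 or ABT-263-treated mouse 478, 3 without DMSO-treated mouse 483 or ABT-263-treated mouse 476, 8 without DMSO-treated mouse 480 or 481, and 11 without ABT-263-treated mouse 477. The share of all genes called moved as well, to 9.39% without ABT-263-treated mouse 478 and 10.3% without DMSO-treated mouse 482. All 7 beta ring genes had a negative log2 fold change in each of the 7 fits that left out 1 mouse.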

How the data were processed

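Dorsal skin of 7 mice was measured by bulk RNA sequencing, with groups taken from the treatment and mouse number in the labels. Per the study's methods, with tool versions from the submitters' processing notes, the authors checked reads with FastQC 0.11.7, aligned them to mm10 with STAR 2.7.9a and counted uniquely aligned proper pairs on the sense strand with featureCounts (Subread 1.6.2). The deposited counts are whole numbers per Ensembl gene with no normalization, and the study's methods describe them as counts for non-mitochondrial genes. The authors also deposited a table of variance-stabilized log2 values from DESeq2 1.23.10, which served here as an alternative. Counts from multi-mapping reads are absent, so genes with near-identical copies can lose or exchange reads.

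Counts were analysed in R 4.3.3 with edgeR 4.0.16: filterByExpr, TMM factors, a robust quasi-likelihood fit on all 17959 genes kept and Benjamini-Hochberg adjustment over them, with a threshold of 0.05. The test was run on simulated counts with 200 changed genes, each at a log2 fold change of 2 up or down. Those changes are larger than that of any member, so the run does not bear on changes of the size seen here. Positions, exon lengths and GC content were taken from GENCODE M21 (GRCm38), which held 55190 of the 55450 identifiers. The study names an Ensembl annotation build that goes with a later mouse assembly than mm10. Which release the counts rest on could therefore not be settled from the sources used here. Copies were found with blastn on GENCODE transcripts. Promoter sequences are those of RefSeq (GRCm38.p6), and 28 of 34 members matched. Totals of 20344364 to 43562330 counts per library set the precision. Replicates are separate mice.

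The members and the gene lists were chosen with earlier results of these data known. Values in every mouse were given for called members, the catalytic genes and the extremes of each particle, and related genes were named when called, with at most 5 a list. Some related genes are not reported here. Psmb7 exceeds the limit of 12 members in that rule and was kept to complete the catalytic genes. Values per mouse for Psmc5, Psmb8, Psmg2 and Nfe2l1 were added after the values were seen. The alternatives tried were the Wald test of DESeq2 1.42.0, DESeq2 and upper-quartile factors, no filter, at least 10 counts in every library, protein-coding genes only, removal of length and GC trends (mgcv 1.9.3), limma 3.58.1 on the variance-stabilized values, and leaving out each mouse. The study's histology and other assays were not used here.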

Additional observations from a re-analysis of the deposited data

Results flagged for a closer look

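For 2 members of the ATPase ring, 1 DMSO-treated mouse stood apart from the other 3. In mouse 480, Psmc4 was at 201 CPM and the others at 153 to 159.8 CPM, and the gap between mouse 480 and the next mouse was 0.865 of the whole range of the group, above the 95% critical value of Dixon's test for 4 samples. The same mouse had 411 CPM of Psmc5, with 307 to 316 CPM in the others, a gap of 0.911 of the range. Of 38 measures examined in the DMSO group, these 2 passed, where chance passes about 1 in 20, or 1.9. Without mouse 480, the log2 fold change of Psmc4 was 0.042 and that of Psmc5 was -0.32, and neither was called in edgeR with or without it.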

How the results depend on the processing

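With 4 mice against 3, the exact permutation test of a single gene cannot give a p below 0.0286, and the number of calls depended on the test and on single mice. Of the 34 members, 10 were called in the reported fit, 4 with no filter on low counts and 18 with the DESeq2 Wald test, where 24.2%, 11.1% and 32.8% of all genes were called. The core gave 5, 1 and 8 calls in the same order, and the regulatory particle 5, 3 and 10. The regulatory particle had 9 calls with length and GC trends removed and 8 with the GC trend alone removed. Leaving out each mouse in turn gave 1735 to 4169 calls over all genes, 2 to 11 over the members, 0 to 4 in the core and 2 to 7 in the regulatory particle, with the lowest numbers without DMSO-treated mouse 482 or ABT-263-treated mouse 478. The difference of the core and regulatory medians was -0.096 as reported, -0.037 with the length trend removed, 0.020 with copies summed, and -0.11 to -0.045 with each mouse left out. The sign changed for 4 members near 0, none of them called. Psma7 was at -0.028 with upper-quartile factors, -0.014 with protein-coding genes only, -0.040 with the length trend removed and -0.058 to 0.093 with each mouse left out. Psmc2 was at -0.042 with both trends removed, and Psmc4 at -0.098 to 0.042 with each mouse left out, the highest without DMSO-treated mouse 480. Psmd10 was at -0.031, -0.010, -0.12, -0.11 and -0.037 with upper-quartile factors, protein-coding genes only, both trends, the GC trend and the length trend removed, and at -0.18 to 0.17 with each mouse left out. The cause was not tested. The fits with 1 trend removed and with copies summed were chosen after seeing the data. No paired analysis was possible because the groups share no mouse numbers.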
